A study of Mus musculus with 20 samples.

Results

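miR-132 and miR-212 are a pair of small RNAs cut from neighbouring hairpins of a common primary transcript. The transcript is a target of the cAMP-responsive transcription factor CREB, best studied in neurons, where neuronal activity and growth factors induce it. A hairpin yields a mature strand from its left (5p) and its right (3p) side, and the strand that is loaded into an Argonaute protein represses messenger RNAs through its seed, bases 2 to 8. In myeloid cells miR-132-3p is known to be induced by bacterial lipopolysaccharide (LPS), and acetylcholinesterase and the co-activator Ep300 are among its described targets.

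All 4 arms, miR-132-3p, miR-132-5p, miR-212-3p and miR-212-5p, were followed in 20 small RNA libraries, all from cells grown out of mouse bone marrow. They were found by matching sequence tags of 18 to 26 nt without mismatch to the 2 annotated hairpins. They are 4 of the 1217 miRNA arms detected from 1178 annotated hairpins, and all 4 passed the filter that left 374 arms for testing (at least 5 CPM in at least 2 libraries). CPM here are reads per 1000000 reads that match any miRNA hairpin.

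The cultures were macrophages grown with M-CSF and dendritic cells grown with GM-CSF, from miR-155 knockout mice (KO, strain B6.Cg-Mir155tm1.1Rsky/J) and from wild-type C57BL/6 mice (WT), aged 8 to 12 weeks. Each of the 4 combinations was given LPS, oxLDL, eLDL or LDL, or left without stimulus, with 1 library per condition. Dendritic cells received 200 ng/ml LPS overnight at day 8 to 9, while no source used here gives the LPS dose for macrophages or the lipoprotein doses, or spells out oxLDL and eLDL. The knockout removes miR-155 from every cell of the animal. The labels do not say whether libraries came from separate mice or cultures, so p-values measure only the spread between these libraries, which may be technical. In the fits of stimulus, knockout and cell type that spread is the departure of KO and WT from parallel stimulus responses. A genotype difference in response therefore counts as error there.

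The libraries held 10254997 to 22796027 reads, of which 5135183 to 11822720 matched miRNA hairpins. The targeted miR-155-5p had 33 to 45 reads in KO against 38431 to 317578 reads in WT macrophage libraries, and 2 to 7 reads in KO against 892 to 84426 reads in WT dendritic cell libraries. The myeloid miRNAs miR-223-3p, miR-142a-3p and miR-142a-5p were present in every library, with summed levels of 21453 to 32286 CPM in macrophages and 16651 to 25929 CPM in dendritic cells. No list used here was made of known markers that tell macrophages from dendritic cells. Between 6.84% and 7.18% of the reads of macrophage libraries held an unread base (N), against at most 0.133% of the reads of dendritic cell libraries, so cell type and whatever differed in sequencing cannot be told apart.

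The mature sequences show what the arms share. They are RefSeq's (GRCm38.p6), written 5′ to 3′ with the seed in capitals.
miR-132-3p: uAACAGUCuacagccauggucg
miR-212-3p: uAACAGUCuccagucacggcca
miR-132-5p: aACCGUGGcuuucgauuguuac
miR-212-5p: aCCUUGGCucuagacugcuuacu
The 3p arms carry the same seed, AACAGUC, and among 1738 mature mouse miRNAs in the RefSeq table no others have it. Over 22 positions, counted from 1 at the 5′ end, miR-132-3p and miR-212-3p are identical at 17 and differ at 5, written with the miR-132-3p base first as A10C, C14U, U17C, U20C and G22A. The 5p arms each have a seed found in no other mature miRNA of the table. No tag assigned to the 4 arms matched any other annotated hairpin, so reads were not shared with paralogs.

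Both hairpins lie on the plus strand of mouse chromosome 11 (GRCm38), inside intron 1 of the non-coding host gene 1700016P03Rik (chr11:75172560-75177633). Mir212 comes first, at chr11:75173388-75173478, and Mir132 follows at chr11:75173682-75173747, with 203 bases between them. The whole hairpins show how the arms sit, with the mature arms in capitals.
Mir132: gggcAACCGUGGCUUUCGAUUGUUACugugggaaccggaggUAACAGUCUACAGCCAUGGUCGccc
Mir212: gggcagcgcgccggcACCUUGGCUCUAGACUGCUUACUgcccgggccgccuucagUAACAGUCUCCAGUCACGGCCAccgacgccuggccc

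**Figure D1:**
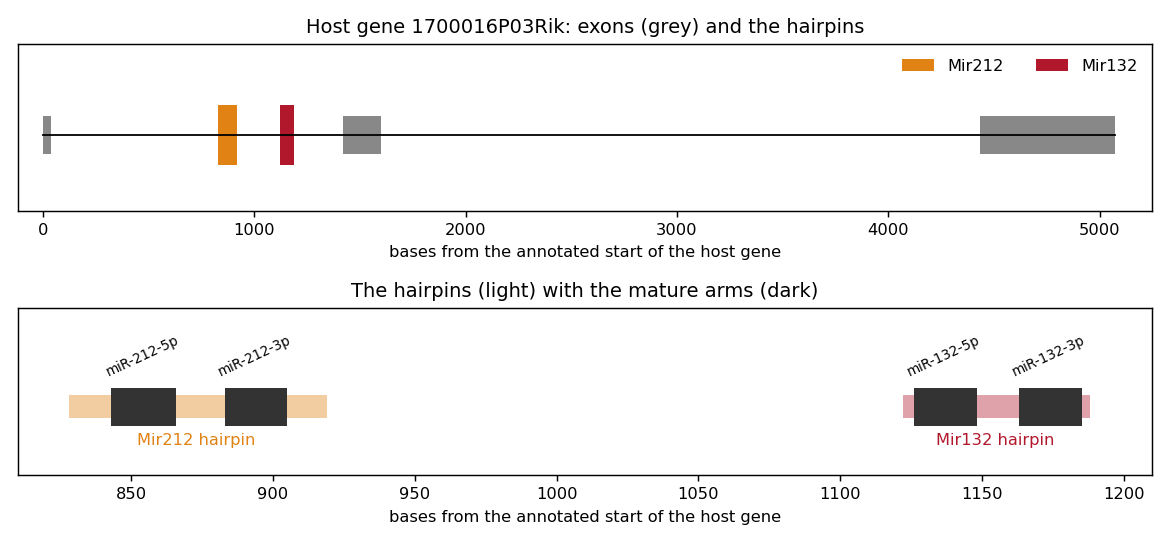
Map of the host gene 1700016P03Rik, with bases from its annotated start on the horizontal axis. The upper track shows the exons in grey and the hairpins in colour, both within the first intron, and the lower track enlarges the hairpins (66 nt for Mir132, 91 nt for Mir212) with the mature arms in dark.

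All 4 arms were higher in macrophages than in dendritic cells. miR-132-3p was the most abundant arm in both, with 19658 reads over the 10 macrophage libraries and 4283 over the 10 dendritic cell libraries. In KO macrophages it stood at 270 CPM with LPS, 256 with oxLDL, 261 with eLDL, 240 with LDL and 166 without stimulus. In WT macrophages the levels were 265, 265, 354 and 257 CPM with LPS, oxLDL, eLDL and LDL, and 103 CPM without stimulus. The 2 unstimulated libraries were the lowest of the macrophages and the WT library with eLDL the highest. In KO dendritic cells miR-132-3p stood at 61.8, 56.2, 78.9 and 62.7 CPM with LPS, oxLDL, eLDL and LDL, and at 62 CPM without stimulus. In WT dendritic cells it stood at 37.9, 43, 47.3 and 55.2 CPM in the same order of stimuli, and at 53.3 CPM without stimulus. The lowest macrophage library (103 CPM) was above the highest dendritic cell library (78.9 CPM), so the cell types did not overlap.

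The fitted difference between the cell-type means of miR-132-3p was 2.14 ± 0.10 in log2 (SE, macrophages over dendritic cells, adjusted p = 3.3e-12, edgeR's quasi-likelihood test), a fold of 4.41. The fit has no term for pairs, and its error comes from departures from the additive fit, not from replicate cultures. miR-132-5p was higher by 1.74 ± 0.18 (adjusted p = 1.6e-07), miR-212-3p by 2.26 ± 0.18 (adjusted p = 5.7e-09) and miR-212-5p by 2.37 ± 0.17 (adjusted p = 3.2e-09). Each arm was higher in 10 of 10 pairs of libraries of the same genotype and stimulus. All exceeded 5 CPM in libraries of both cell types. Calls were common in this comparison: 77.8% of the 374 tested arms were called (147 higher, 144 lower), with a median of 0.01 over all of them against 2.20 over the 4 arms. Among markers of other cells, the lymphocyte miRNA miR-150-5p stood at 63.2 to 167 CPM in macrophages and 6.15 to 24 CPM in dendritic cells, without overlap. The erythroid sum (miR-451a and miR-144-3p) overlapped, at 0.117 to 2.22 CPM in macrophages and 0 to 8.76 CPM in dendritic cells. The epithelial sum (miR-200a-3p, miR-200b-3p, miR-200c-3p, miR-141-3p and miR-203-3p) overlapped too, at 186 to 257 CPM in macrophages and 149 to 238 CPM in dendritic cells. Their part in the difference was not tested. In bulk samples, fewer cells of a type and less RNA per cell cannot be told apart.

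The other arms were scarcer than miR-132-3p in every library. miR-212-5p ran from 22 through a median of 61 to 79.8 CPM in macrophages and from 4.96 through 12.1 to 16.3 CPM in dendritic cells. miR-212-3p ran from 19.7 through 37.8 to 47.8 CPM in macrophages and from 4.17 through 7.09 to 12.2 CPM in dendritic cells. For both arms of miR-212 the cell types did not overlap. miR-132-5p ran from 8.87 through 25.3 to 32.6 CPM in macrophages and from 3.27 through 7.98 to 11.2 CPM in dendritic cells, and overlapped through the unstimulated WT macrophage library.

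By mean CPM, miR-132-3p ranked 99th of the 1217 detected arms in macrophages and 151st in dendritic cells. miR-212-5p ranked 144th in macrophages and 239th in dendritic cells, miR-212-3p 180th in macrophages and 276th in dendritic cells, and miR-132-5p 201st in macrophages and 277th in dendritic cells. Many neighbours in the order of the 20 libraries could not be separated by counting error: for miR-132-3p, 14 of the 19 neighbouring pairs had overlapping 95% Poisson intervals, as did 18 for miR-132-5p and 17 for each arm of miR-212. Poisson and binomial intervals cover counting error only, since the reads carry no molecular identifiers. A count of 3, about the one-sided 95% Poisson upper limit for a count of 0, is 0.254 to 0.584 CPM, below every level given for the 4 arms.

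**Figure D2:**
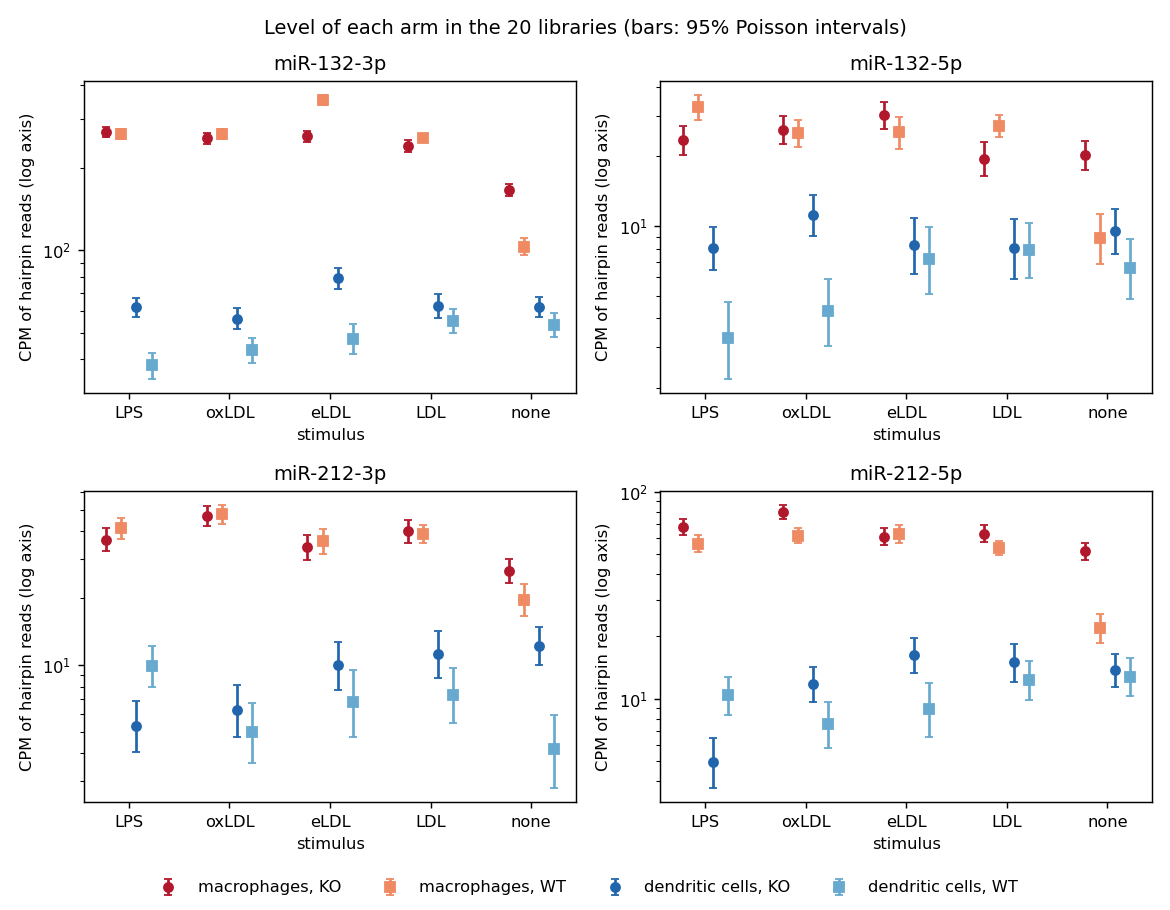
Level of each arm in CPM of hairpin reads (log axis) in the 20 libraries, by stimulus, with macrophages in red and dendritic cells in blue, KO as circles and WT as squares, and 95% Poisson intervals as bars. The miR-132-3p points of macrophages lie between 103 and 354 CPM, with both unstimulated libraries below the stimulated ones, while those of dendritic cells lie between 37.9 and 78.9 CPM.

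In macrophages miR-132-3p was higher with every stimulus. LPS is the bacterial ligand of the receptor TLR4, and the lipoproteins are cholesterol carriers. Over the KO and WT pairs the log2 change of miR-132-3p was 0.99 ± 0.21 with LPS (adjusted p = 0.00346), 0.71 ± 0.21 with oxLDL (adjusted p = 0.0408), 1.06 ± 0.22 with eLDL (adjusted p = 0.00784) and 0.79 ± 0.21 with LDL (adjusted p = 0.0324), all by edgeR's quasi-likelihood test. The mean of the 3 lipoproteins was higher by 0.85 ± 0.18 (adjusted p = 0.00408). These comparisons share the same 2 unstimulated libraries. LPS and the mean of the 3 lipoproteins differed by 0.13 ± 0.17 (95% interval −0.23 to 0.49, adjusted p = 0.693), a comparison that leaves the unstimulated libraries out of the contrast and was added after the data were seen.

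The share of all tested arms called was 18.4% with LPS, 11.8% with oxLDL, 9.89% with eLDL, 8.82% with LDL and 12.3% for the mean of the lipoproteins. In each of these comparisons 1 of the 4 arms, miR-132-3p, was called, and all 4 had a fitted change above 0. The LPS changes of the arms not called were 0.94 ± 0.39 for miR-132-5p (adjusted p = 0.111), 0.75 ± 0.38 for miR-212-3p (adjusted p = 0.195) and 0.80 ± 0.36 for miR-212-5p (adjusted p = 0.146). Each gained a call when some single library was left out: miR-132-5p without the unstimulated KO macrophages (1.68, adjusted p = 0.0228; range over left-out libraries 0.39 to 1.68), miR-212-3p without KO dendritic cells with LPS (0.83, adjusted p = 0.0496; 0.54 to 0.97) and miR-212-5p without the KO or the WT dendritic cells with LPS (0.88 in both, adjusted p = 0.0315 and 0.0316; 0.39 to 1.34). Their changes with single lipoproteins were 0.47 to 0.81, with adjusted p from 0.239 to 0.524. For the mean of the lipoproteins they were 0.65 to 0.69, with adjusted p from 0.185 to 0.238 (edgeR's quasi-likelihood test). By that test the mean for miR-212-3p was called with macrophages fitted alone (0.71, adjusted p = 0.0183). With no filter miR-212-5p was called with LPS (0.87, adjusted p = 0.0293) and for the mean (0.79, adjusted p = 0.0221). Without the unstimulated KO macrophages the mean for miR-132-5p was 1.42. With macrophages fitted alone miR-212-3p was called with LPS (0.79, adjusted p = 0.0171) and oxLDL (0.94, adjusted p = 0.0191), and without the unstimulated KO library miR-132-5p was called with eLDL (1.57, adjusted p = 0.0462), all by edgeR's quasi-likelihood test. The median over the 4 arms was 0.87 with LPS and 0.68 for the mean of the lipoproteins, against 0.08 and 0.00 over all tested arms.

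The ratios were also taken within each genotype. In KO macrophages LPS over no stimulus gave CPM ratios of 1.62 (95% counting interval 1.52 to 1.73) for miR-132-3p, 1.16 (0.94 to 1.42) for miR-132-5p, 1.38 (1.16 to 1.64) for miR-212-3p and 1.31 (1.16 to 1.49) for miR-212-5p. In WT macrophages the same ratios were 2.56 (2.36 to 2.79), 3.68 (2.79 to 4.92), 2.1 (1.72 to 2.58) and 2.54 (2.12 to 3.07), each larger than in KO. The unstimulated WT library had the lowest level of all 10 macrophage libraries for each of the 4 arms. Without stimulus, KO over WT was 1.61 (1.47 to 1.76) for miR-132-3p and 2.33 (1.95 to 2.81) for miR-212-5p, whereas with LPS it was 1.02 (0.958 to 1.08) and 1.2 (1.06 to 1.37).

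The stimulus calls in macrophages rested on that unstimulated WT library. Without it the change of miR-132-3p was 0.65 with LPS (adjusted p = 0.0883), 0.36 with oxLDL (adjusted p = 0.461), 0.71 with eLDL (adjusted p = 0.121), 0.44 with LDL (adjusted p = 0.471) and 0.50 for the mean of the lipoproteins (adjusted p = 0.226). The call was also lost without the WT library of the stimulus itself, at 0.74 with oxLDL (adjusted p = 0.172), 0.82 with eLDL (adjusted p = 0.122) and 0.71 with LDL (adjusted p = 0.222), and without the KO library of the stimulus, at 0.75 with oxLDL (adjusted p = 0.155) and 0.96 with LDL (adjusted p = 0.0709). The oxLDL call was also lost without WT dendritic cells with oxLDL (0.71, adjusted p = 0.0518) and the LDL call without KO macrophages with oxLDL (0.80, adjusted p = 0.0506). All adjusted p here are from edgeR's quasi-likelihood test. The unstimulated WT library also held summed stromal markers (miR-143-3p, miR-145a-5p, miR-199a-3p, miR-199a-5p and miR-214-3p) of 281 CPM against 0.847 to 125 CPM in the other 9 macrophage libraries, and endothelial markers (both arms of miR-126a) of 16.8 CPM against 2.92 to 13.3 CPM. Its myeloid markers summed to 21453 CPM against 26014 to 32286 CPM, its neuronal markers to 5058 CPM against 6885 to 18359 CPM, and its lymphoid marker to 63.2 CPM against 97.2 to 167 CPM. The part of these differences in the result was not tested.

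In dendritic cells no stimulus gave a called change in any of the 4 arms when all libraries were used. With LPS miR-132-3p changed by 0.25 ± 0.22 (95% interval −0.22 to 0.71, adjusted p = 0.494, edgeR's quasi-likelihood test), while 22.5% of all tested arms were called. The changes of the other arms were −0.09 ± 0.42 for miR-132-5p, 0.50 ± 0.42 for miR-212-3p and −0.27 ± 0.39 for miR-212-5p, with adjusted p of 0.453 to 0.945. Without WT dendritic cells with LPS, miR-212-5p was called lower at −1.28 (adjusted p = 0.0426), and without KO dendritic cells with LPS it was at 0.29. The sign for miR-132-3p depended on the scaling: per total miRNA reads it was −0.24, where the median over all tested arms was −0.47. Its LPS over unstimulated CPM ratios were 0.996 (0.887 to 1.12) in KO and 0.711 (0.612 to 0.826) in WT dendritic cells. For miR-212-5p they were 0.36 (0.255 to 0.502) in KO and 0.812 (0.6 to 1.1) in WT.

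With lipoproteins the changes of miR-132-3p in dendritic cells were −0.04 ± 0.22 with oxLDL, 0.21 ± 0.22 with eLDL, 0.15 ± 0.22 with LDL and 0.11 ± 0.18 for their mean, with adjusted p of 0.832 to 0.986. Few arms of any kind were called there: 0.535% with oxLDL and 0% with eLDL, LDL and the mean, where unadjusted p under 0.05 was reached by 28, 27 and 43 of 374 and DESeq2 called 2, 8 and 7. The remaining 3 arms had changes of −0.31 to 0.32. LPS against the mean of the lipoproteins, a comparison added after the data were seen, called 24.1% of arms in dendritic cells and 13.6% in macrophages and none of the 4 in either.

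**Figure D3:**
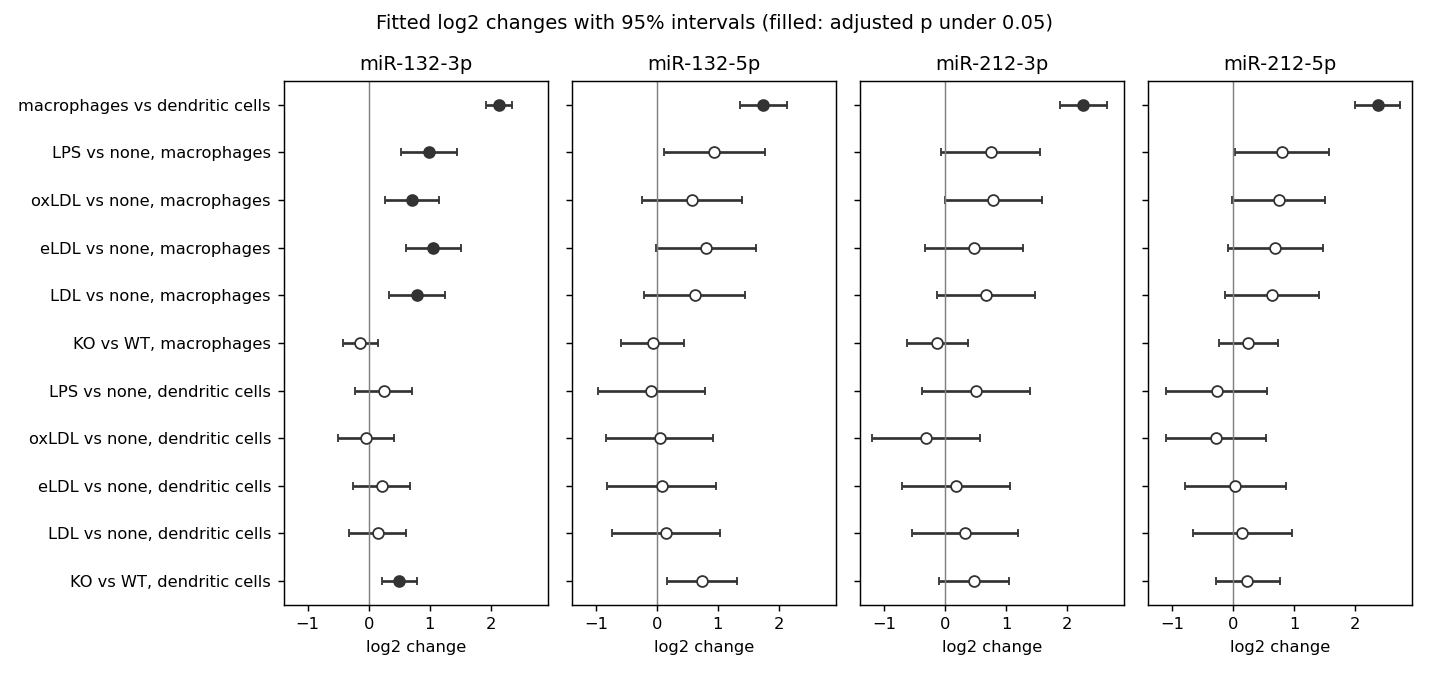
Fitted log2 change of each arm (horizontal axis) in each comparison, with 95% intervals and filled points for adjusted p under 0.05. All 4 arms are filled for macrophages over dendritic cells, and miR-132-3p alone is filled for the 4 stimuli in macrophages and for KO over WT in dendritic cells.

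The LPS effect on miR-132-3p was larger in macrophages than in dendritic cells by 0.74 ± 0.30, which did not pass adjustment (95% interval 0.10 to 1.39, adjusted p = 0.143, edgeR's quasi-likelihood test; 12.6% of arms were called). The difference passed when counts were scaled by total miRNA reads (1.23, adjusted p = 0.0102), when no filter was applied (0.88, adjusted p = 0.0421) and without the unstimulated KO macrophage library (1.16, adjusted p = 0.0193). Without the unstimulated WT macrophage library it was 0.40 (adjusted p = 0.509). For the other arms the difference was 1.03 ± 0.57, 0.24 ± 0.56 and 1.07 ± 0.53 for miR-132-5p, miR-212-3p and miR-212-5p, and that of miR-212-5p was called without WT dendritic cells with LPS (2.16, adjusted p = 0.0104) and per total miRNA reads (1.58, adjusted p = 0.0375). An effect called in macrophages and not in dendritic cells is therefore not shown to differ between them. Whether both received equal LPS treatment is also unknown, so a difference between them could not be assigned to cell type.

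Other miRNAs known to respond to Toll-like receptors give the scale of the LPS responses. Of 16 such arms, 4 rose and 3 fell with LPS in macrophages, with a median log2 change of 0.24 against 0.08 over all tested arms, of which 18.4% were called. In dendritic cells 12 rose and 1 fell, with a median of 1.17 against 0.00 over all, of which 22.5% were called. By edgeR's quasi-likelihood test miR-147-3p, an inhibitor of TLR signalling, had a log2 change of 1.41 ± 0.25 in macrophages (adjusted p = 0.00105) against 7.02 ± 0.35 in dendritic cells (adjusted p = 1.6e-09). miR-146a-5p, which targets the adaptors Irak1 and Traf6, rose by 1.07 ± 0.19 in macrophages (adjusted p = 8.5e-04) and changed by 0.51 ± 0.18 in dendritic cells (adjusted p = 0.0583). For 11 of the 16 the LPS change was called lower in macrophages than in dendritic cells and for none higher, where 12.6% of all tested arms were called. LPS treatment is described for dendritic cells alone, so unequal treatment and unequal response cannot be told apart here. Levels over all stimuli differed too: 7 of the 16 were called higher in macrophages, among them miR-147-3p by 6.59 ± 0.15, and 8 lower. The part of these level differences in the LPS changes was not tested. The LPS change of miR-132-3p in macrophages, 0.99 ± 0.21, was near that of miR-146a-5p. Both arms of the deleted miR-155 and both arms of miR-9 are among the 16, and the list was chosen with earlier results of these data known.

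The second comparison list held miRNAs that are neuronal or linked to the repressor REST, which binds the miR-132/miR-212 locus in neurons. Of its 11 arms 9 were detected and 6 tested. In macrophages over dendritic cells 4 were called higher and 1 lower by edgeR's quasi-likelihood test, in a comparison that called 77.8% of all tested arms. miR-9-5p had a log2 difference of 10.50 ± 0.19 (adjusted p = 3.3e-15), miR-138-5p of 4.23 ± 0.19 (adjusted p = 2.6e-12) and miR-128-3p of −0.78 ± 0.08 (adjusted p = 2.8e-07). miR-9-3p and miR-135a-5p, also called higher, had no reads in most dendritic cell libraries, and no fold is given for them. They passed the filter through the macrophage libraries, so their calls as higher there were set by the filter and add no support. With LPS, miR-129-5p rose in macrophages (2.80 ± 0.57, adjusted p = 0.00203) and in dendritic cells (3.83 ± 0.58, adjusted p = 1.3e-04), while miR-9-5p, on both lists, rose in dendritic cells (1.55 ± 0.35, adjusted p = 0.00562). Among the neuronal markers miR-137-3p was at 0 in every library and miR-218-5p in all libraries of macrophages and of KO dendritic cells, and the summed level of 5058 to 18359 CPM in macrophages, against 4.28 to 19.4 CPM in dendritic cells, came from miR-9-5p and, at far lower levels, miR-124a-3p. The part of other cell types in it was not tested.

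The miR-155 knockout was accompanied by more miR-132-3p in dendritic cells. KO was higher than WT in 5 of 5 matched pairs, by CPM ratios of 1.14 to 1.67 with a median of 1.31, and in 4 of them the 95% counting interval lay above 1. The fitted difference was 0.50 ± 0.14 (adjusted p = 0.0345, edgeR's quasi-likelihood test), where 6.68% of arms were called. The other arms gave 0.74 ± 0.27 for miR-132-5p (adjusted p = 0.119), 0.47 ± 0.27 for miR-212-3p (adjusted p = 0.346) and 0.23 ± 0.25 for miR-212-5p (adjusted p = 0.642). Of these, miR-132-5p was called by DESeq2 (0.78, adjusted p = 0.0431) and miR-212-3p without the KO or the WT library with LPS (0.82 in both, adjusted p = 0.0418 and 0.0423). The direction stayed without any single library, at 0.42 to 0.64, but the call was lost without 9 of the 10 dendritic cell libraries, with adjusted p of 0.0604 to 0.16, and without the KO macrophage library with oxLDL (adjusted p = 0.0526). Summed epithelial markers were 149 to 164 CPM in KO and 213 to 238 CPM in WT dendritic cells, with no overlap, and summed stromal markers 21.9 to 85.3 CPM in KO and 68.5 to 282 CPM in WT. Their part in the difference was not tested.

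In macrophages KO and WT levels of miR-132-3p overlapped, with KO higher in 2 of 5 pairs. The CPM ratio of KO over WT was 1.61 (95% counting interval 1.47 to 1.76) without stimulus and 1.02 (0.958 to 1.08) with LPS. It was 0.968 (0.911 to 1.03) with oxLDL, 0.738 (0.694 to 0.785) with eLDL and 0.933 (0.878 to 0.99) with LDL. The fitted difference averages these opposite directions and does not show equal levels. That difference was −0.14 ± 0.13 (95% interval −0.42 to 0.15, adjusted p = 0.54, edgeR's quasi-likelihood test), while 24.3% of arms were called. It was 0.02 per total miRNA reads and 0.21 with upper-quartile scaling, so it had no stable sign. miR-132-5p (−0.07 ± 0.25), miR-212-3p (−0.13 ± 0.24) and miR-212-5p (0.24 ± 0.23) were not called either, with adjusted p of 0.516 to 0.922. The knockout effect on miR-132-3p differed between the cell types, with macrophages minus dendritic cells at −0.64 ± 0.19 (adjusted p = 0.0328, edgeR's quasi-likelihood test), where 14.2% of arms were called. That comparison was added after the data were seen, and its call was lost at adjusted p of 0.0535 to 0.11 when 1 of 12 libraries was left out, under 5 other settings too. Those libraries are the 6 macrophage libraries with a lipoprotein and, of the dendritic cells, both with LPS, both with eLDL, and KO with oxLDL or LDL.

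Whether the LPS response depended on miR-155 was tested over both cell types. LPS in KO minus LPS in WT was −0.05 ± 0.32 for miR-132-3p (95% interval −0.75 to 0.65, adjusted p = 0.992) and −1.38 ± 0.52 for miR-212-3p (adjusted p = 0.864). No arm of the 374 was called by edgeR's quasi-likelihood test (0%), where 17 had an unadjusted p under 0.05, and DESeq2 called 0. For miR-132-3p the CPM ratios with LPS were 1.62 in KO and 2.56 in WT macrophages, but 0.996 in KO and 0.711 in WT dendritic cells. Its pooled value averages these opposite differences, so it does not show equal responses of the genotypes within a cell type. In dendritic cells miR-212-3p stood at 5.33 CPM with LPS against 12.2 CPM without in KO, and at 9.92 CPM with LPS against 4.17 CPM without in WT. The CPM ratios were 0.435 (0.309 to 0.608) in KO and 2.38 (1.55 to 3.76) in WT, from 57 and 103 reads in KO and 88 and 29 reads in WT. With non-templated ends counted, the WT levels were 9.83 CPM with LPS against 6.15 CPM without, a smaller rise.

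The arms were used unequally. Over all libraries the 5p arm made 9.55% of miR-132 reads and 60.6% of miR-212 reads, in exact tags, and 4.49% and 53.4% when reads with non-templated 3′ ends were counted too, so miR-212-5p was read more often than miR-212-3p while miR-132-3p far outnumbered miR-132-5p. Reads counted as non-templated differ from the hairpin within the last 2 bases, so unread or misread bases there are included. In exact tags the 5p share of miR-212 was 52.8% to 65.9% in macrophages and 48.2% to 75.4% in dendritic cells. The 5p share of miR-132 averaged 8.99% in macrophages and 11.6% in dendritic cells, lower in macrophages in 8 of 10 pairs, by −2.63 ± 3.14 percentage points (SD, n = 10 pairs; exact two-sided sign-flip permutation p = 0.0352, adjusted p = 0.316 over 9 tests). With non-templated ends the medians of the miR-132 share were 4.18% in macrophages and 5.7% in dendritic cells. The 5p share of miR-212 differed by 1.45 ± 10.9 points between macrophages and dendritic cells and by 1.08 ± 9.79 points between KO and WT, less than the spread between pairs. Shares of reads also depend on how well each sequence is ligated and are not molar ratios.

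miR-212-3p made up 13.1% of the exact reads with the shared seed, with 9.29% to 16% in macrophages and 7.25% to 20.8% in dendritic cells. With non-templated ends, carried by 56.2% of miR-132-3p reads, it made up 8.68%, with 7.06% to 11.4% in macrophages and 4.42% to 11.2% in dendritic cells. In exact tags the highest and the lowest of the 20 libraries were both WT dendritic cells, 20.8% (exact 95% binomial interval 17 to 24.9) with LPS against 7.25% (4.91 to 10.2) without stimulus. In KO dendritic cells the share was 7.94% (6.07 to 10.2) with LPS against 16.5% (13.7 to 19.6) without. With non-templated ends these 4 values were 4.61% with LPS against 8.67% without in KO and 11.2% with LPS against 5.46% without in WT, and the highest library was then the unstimulated WT macrophages at 11.4%. Over 10 pairs the exact share differed by 1.07 ± 4.82 points between macrophages and dendritic cells (exact permutation p = 0.498, adjusted p = 0.9) and by −0.204 ± 5.54 points between KO and WT (exact permutation p = 0.877, adjusted p = 0.987). For LPS the difference over 4 pairs was 0.17 ± 9.39 points, and so few pairs cannot reach 0.05 in the exact test.

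**Figure D4:**
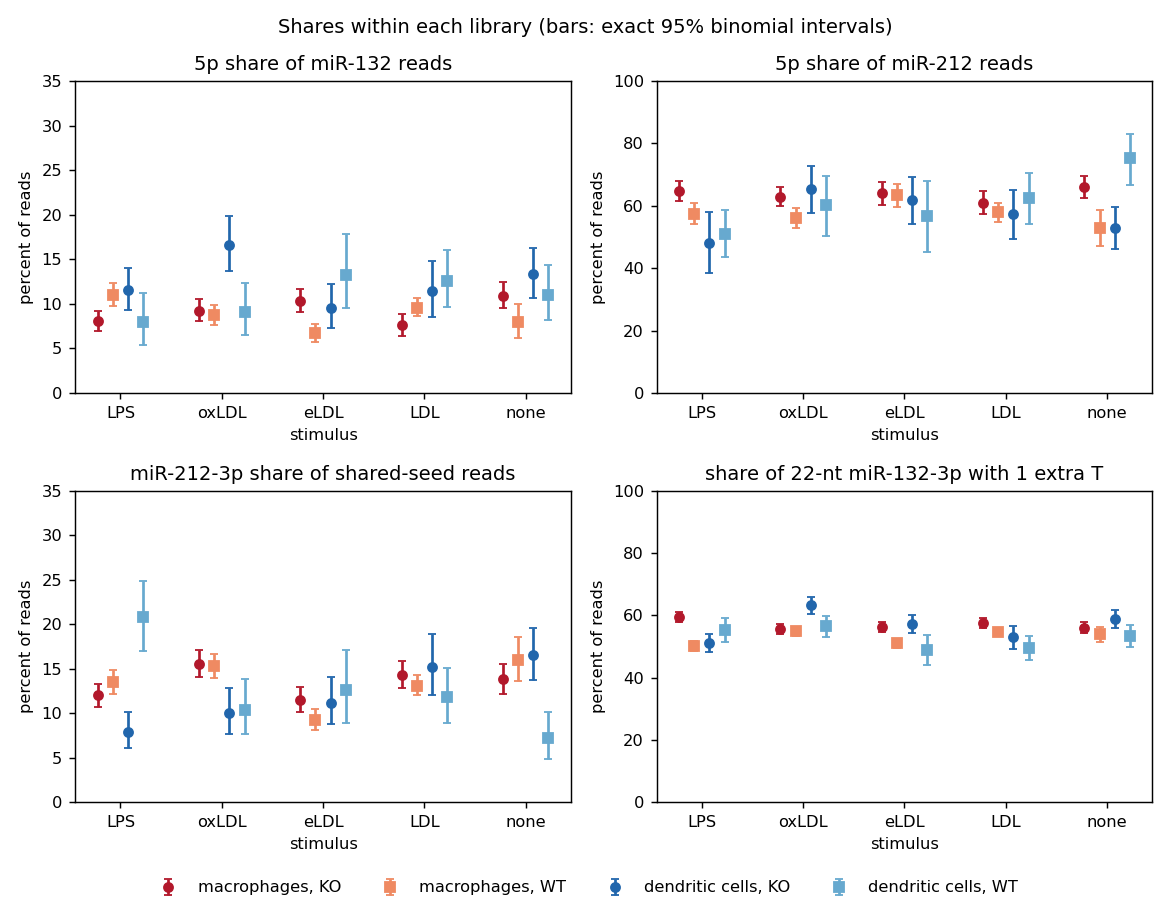
Percent of reads in each library, by stimulus, for the 5p share of miR-132 and of miR-212, the miR-212-3p share of the shared-seed reads and the share of 22-nt miR-132-3p with an extra T, with exact 95% binomial intervals; the first 3 shares count exact tags. The 5p share is below 17% for miR-132 and above 48% for miR-212 in every library, and the WT dendritic cell library with LPS stands highest in the miR-212-3p share at 20.8%.

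The most read form of each arm is shown as it stood in the tags, as DNA letters with bases 2 to 8 in capitals.
miR-132-3p tag: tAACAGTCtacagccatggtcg
miR-132-5p tag: aCCGTGGCtttcgattgttact
miR-212-3p tag: tAACAGTCtccagtcacggcc
miR-212-5p tag: aCCTTGGCtctagactgcttact
Ends were uniform: 97.4% of exact miR-132-3p reads, 93.8% of miR-132-5p, 96.4% of miR-212-3p and 87.6% of miR-212-5p began at the most used 5′ base. The miR-132-5p start lies 1 base downstream of RefSeq's, so bases 2 to 8 of the tag read CCGTGGC where the RefSeq arm has the seed ACCGUGG, and 5.22% of reads began at the RefSeq base. The other 3 arms began where RefSeq has them. miR-132-3p was 22 nt long in 91.5% of exact reads, miR-132-5p 22 nt in 84.4%, miR-212-3p 21 nt in 76.6% and miR-212-5p 23 nt in 79.9%.

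Exact matching left out the most read form of miR-132-3p, the same 22 bases followed by 1 T that the hairpin does not encode, shown with the added base in capitals.
miR-132-3p with added T: taacagtctacagccatggtcgT
It had 26845 reads against 21902 for the 22-nt form without it. The T form was 55.1% of both together, from 50.1% through a median of 55.2% to 59.5% in macrophages and from 48.9% through 54.3% to 63.2% in dendritic cells. The same measure was 3.45% for miR-212-3p, 0.686% for miR-212-5p and 0.189% for miR-132-5p. Among 155 arms with at least 2000 such reads and a hairpin that does not continue with T, miR-132-3p ranked 11th, where the median was 4.2% and 23 arms exceeded 25%. The 3′ adapter of the TruSeq small RNA kit also begins with T, so an added T and a remnant of the adapter cannot be told apart in these tags.

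The share with the added T averaged 56.8% in KO and 52.8% in WT libraries and was higher in KO in 9 of 10 pairs, by 3.99 ± 3.92 points (SD, n = 10 pairs). This comparison was added after the data were seen and did not pass adjustment (exact two-sided sign-flip permutation p = 0.0156, adjusted p = 0.188 over 12 tests). Without the pair of dendritic cells with LPS it was 4.88 points and passed (adjusted p = 0.0469), and over all left-out pairs it ran from 3.39 to 4.88 points. Between macrophages and dendritic cells the difference was 0.253 ± 4.89 points (exact permutation p = 0.875, adjusted p = 0.957).

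**Figure D5:**
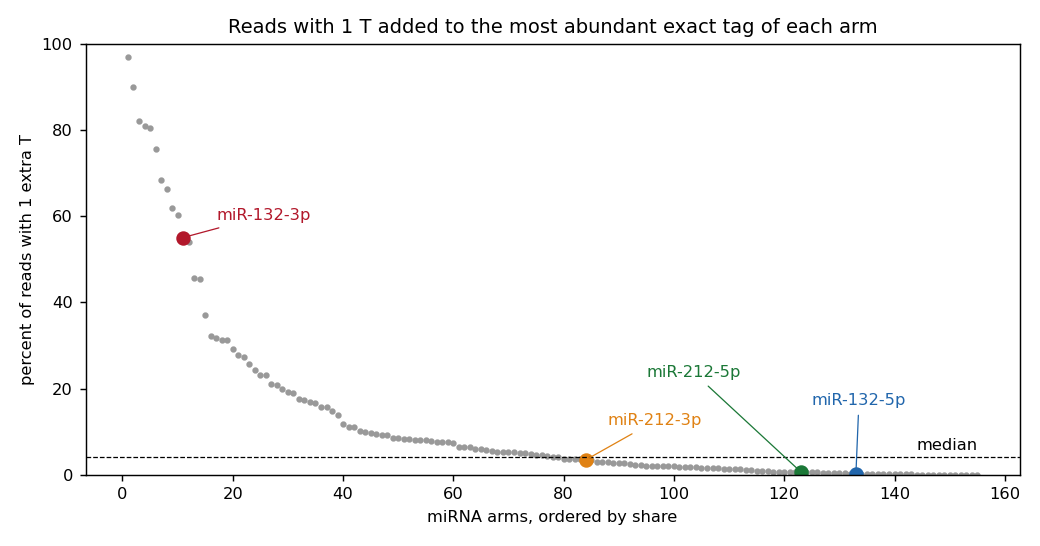
Percent of reads with 1 extra T on the most read exact tag of each of 155 miRNA arms, in descending order, with the median as a dashed line and the 4 arms in colour. miR-132-3p stands at 55.1%, while the other 3 arms lie below the median of 4.2%.

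The 4 arms were also set against all other arms for how they varied within a culture. After the mean of each culture was subtracted from log2(CPM + 1), miR-132-3p correlated over the 20 libraries with miR-132-5p (r = 0.78), miR-212-5p (r = 0.72) and miR-212-3p (r = 0.49). miR-212-3p correlated with miR-212-5p at r = 0.72, its second closest of 373 other tested arms, and miR-132-5p with miR-212-5p at r = 0.60. The 2 arms of each hairpin had higher values (0.78 and 0.72) than the 3p arms with their shared seed (0.49). Across the hairpins, however, miR-132-3p with miR-212-5p also reached 0.72. The 5 arms closest to miR-132-3p were miR-34a-5p (0.86), miR-151-3p (0.85), miR-151-5p (0.85), miR-29a-3p (0.84) and miR-187-5p (0.83), and the 5 closest to miR-212-3p were miR-677-5p (0.80), miR-212-5p (0.72), miR-181c-3p (0.68), miR-127-3p (0.64) and miR-9-3p (0.64). The closest to miR-132-5p was miR-151-3p (0.82) and the closest to miR-212-5p was miR-149-5p (0.80). These are descriptions over 20 libraries that share depth and scaling, and in macrophages they also share the low unstimulated libraries. Without subtracting culture means, the values between the 4 arms were 0.89 to 0.96, which the level difference between cell types sets. On that scale miR-151-3p and miR-151-5p correlated negatively with miR-132-3p (r = −0.37 and −0.49). miR-34a-5p, miR-29a-3p and miR-187-5p stood at 0.83, 0.61 and 0.90.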

How the data were processed

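The authors deposited 1 table per library, listing distinct tags of 18 to 45 nt with raw read counts; the deposited counts are not normalized. Per the labels' protocols, Trizol total RNA went into TruSeq small RNA libraries. Per the submitters' processing notes CASAVA 1.8.2 was used, with no role stated; adapter removal is not given in the sources used here. Only tags of 18 to 26 nt that match exactly were assigned to GENCODE M21 hairpins (GRCm38), with arms set by RNAfold 2.7.2 and starts within 2 nt of the most read 5′ end. edgeR 4.0.16 (TMM, robust quasi-likelihood, Benjamini-Hochberg at 0.05) fitted culture and stimulus within cell type over 20 libraries, with 8 residual degrees of freedom, or 4 for the genotype difference in LPS response. With 1 library per condition, the spread comes from the additive fit. Named miRNAs are the 4 arms, the lists, the markers and the 5 closest arms. Scripts were tested on simulated data. Alternatives included DESeq2 1.42.0. The members and lists were chosen with earlier results of these data known. Tags outside annotated hairpins were not analysed here, and neither was the promoter.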

Additional observations from a re-analysis of the deposited data

Results flagged for a closer look

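The knockout effect on miR-132-3p differed between cell types by −0.64 on the log2 scale (macrophages minus dendritic cells, edgeR's quasi-likelihood test, adjusted p = 0.0328), by a test of the difference itself that was added after the data were seen. The call was lost, at −0.66 to −0.53, when any 1 of 12 libraries was left out, and under 5 other settings. KO exceeded WT in 2 of 5 macrophage pairs and in 5 of 5 dendritic cell pairs.

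Of all miR-132-3p reads, 56.2% differed from the hairpin within the last 2 bases and so lie outside the exact matches used for the comparisons. For the other arms the shares were 30.8% for miR-212-3p, 7.28% for miR-212-5p and 1.71% for miR-132-5p. The leading such tag of miR-212-3p held an unread base at position 20 of 21, next to its end, and had 224 reads. Another, with 162 reads, held G there where the hairpin encodes C. Both ended in the encoded base, so these shares count unread or misread bases as well as added ones. The shares pool all libraries, and that of miR-212-3p varied between them. Exact matches made 289 of its 441 reads in KO macrophages with LPS and 57 of 66 in KO dendritic cells with LPS. In unstimulated WT dendritic cells they made 29 of 48.

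In exact tags miR-212-3p moved in opposite directions with LPS in the dendritic cells of the 2 genotypes, with CPM ratios of 0.435 in KO and 2.38 in WT and counting intervals on opposite sides of 1. With non-templated ends counted, the rise in WT was smaller, at 9.83 CPM with LPS against 6.15 CPM without. In KO the levels were then 5.48 CPM with LPS against 12.7 CPM without. With 1 pair per genotype the difference was not tested within dendritic cells, and over both cell types it was not called (adjusted p = 0.864, edgeR's quasi-likelihood test).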

How the results depend on the processing

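The higher level of all 4 arms in macrophages kept its direction and its call under every setting tried and without any single library. No paired analysis was possible because each condition has 1 library, numbered 1, so that groups share fewer than 2 replicate numbers. This concerns only a block by replicate number. In the ratios and share tests libraries were matched by condition (same genotype and stimulus, or same cell type and stimulus). Counting limits the rarer arms most: miR-132-5p and miR-212-3p had as few as 29 reads in a dendritic cell library. Where the cause of a change is not named below, the cause was not tested.

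With total miRNA reads as the scale, miR-132-3p in dendritic cells changed by −0.24 with LPS (151 arms called) and by −0.03 for the mean of the lipoproteins, and LPS against that mean gave −0.21. On the same scale miR-132-5p changed by −0.13 with oxLDL (0 called), −0.03 with eLDL and −0.04 for the mean, miR-212-5p by −0.08 with eLDL and miR-212-3p by −0.06 for the mean (1 called). In macrophages LPS against the mean gave −0.02 for miR-132-3p, −0.05 for miR-212-3p and −0.04 for miR-212-5p, and KO over WT gave 0.02, 0.09 and 0.03 for miR-132-3p, miR-132-5p and miR-212-3p. The knockout difference of miR-132-3p in dendritic cells lost its call at 0.45, its difference between cell types at −0.43, and the LPS difference between cell types gained a call at 1.23 (91 called).

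With upper-quartile scaling KO over WT in macrophages was 0.21, 0.28 and 0.22 for miR-132-3p, miR-132-5p and miR-212-3p (149 called, where the median of all arms moved by 0.34), and the knockout difference between cell types was −0.36, not called. In dendritic cells miR-132-5p was at −0.07 with oxLDL (0 called) and −0.07 with eLDL, miR-212-5p at −0.11 with eLDL, and the mean of the lipoproteins at −0.02, −0.02 and −0.03 for miR-132-3p, miR-132-5p and miR-212-3p. Median-of-ratios scaling gave 1 call each for oxLDL, eLDL, LDL and their mean in dendritic cells, and DESeq2 gave 6, 2, 8 and 7 there and 44 for KO over WT in dendritic cells.

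A filter of 1 CPM gave −0.07 for miR-132-5p with oxLDL, −0.01 for miR-212-5p with eLDL (1 called) and −0.01 for miR-212-3p for the lipoprotein mean (1 called), and no call at 0.45 for the knockout in dendritic cells or at −0.54 for its difference between cell types. With no filter 12, 3, 8 and 7 arms were called for oxLDL, eLDL, LDL and their mean in dendritic cells and 4 for the genotype difference in LPS response, and the LPS difference of miR-132-3p between cell types was called at 0.88. Tags of 20 to 24 nt gave 0.02 for miR-132-3p with oxLDL in dendritic cells, 1 call each for eLDL and the mean, and −0.164 points for the LPS difference in the miR-212-3p share. Counting any start gave 1, 1 and 5 calls for eLDL, LDL and the mean in dendritic cells, 0.06 for miR-132-5p in KO over WT macrophages and −0.57, not called, for the knockout difference of miR-132-3p between cell types.

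Counting non-templated 3′ ends gave, in dendritic cells, 0.09 for miR-132-3p with oxLDL (0 called) and −0.03 with LDL, −0.03, −0.16 and −0.09 with eLDL for miR-132-5p, miR-212-3p and miR-212-5p, −0.12 for miR-212-3p for the mean, and −0.02 for miR-132-3p in LPS against the mean. In macrophages it gave −0.02, −0.03 and −0.07 for miR-132-3p, miR-212-3p and miR-212-5p in LPS against the mean and 0.01 for miR-132-3p in KO over WT. The knockout difference between cell types was −0.56, not called, the LPS difference in the miR-212-3p share −0.359 points, and the 5p share of miR-212 lower in macrophages by −2.87 points. Fitting each cell type alone gave 2, 3 and 2 calls for eLDL, LDL and the mean in dendritic cells, 0.84 without a call for miR-132-3p with LDL in macrophages (19 called) and 0.01 for miR-132-5p in KO over WT macrophages. Without robust fitting the oxLDL change of miR-132-3p in macrophages, 0.71, was not called.

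Leaving out single libraries moved miR-132-3p in macrophages between 0.65 and 1.40 with LPS, 0.36 and 1.12 with oxLDL, 0.71 and 1.47 with eLDL, 0.44 and 1.2 with LDL, and 0.50 and 1.26 for the mean. Calls then numbered 4 to 49 with oxLDL, 1 to 40 with eLDL, 6 to 34 with LDL and 23 to 50 for the mean. The lowest of these counts came without the WT macrophage library of the stimulus itself, or, for the mean, without the unstimulated WT library, which alone left 24 calls with oxLDL, 10 with eLDL and 7 with LDL. Without the KO library of the stimulus 24, 18 and 15 arms were called with oxLDL, eLDL and LDL. KO over WT in dendritic cells ran from 0.42 to 0.64 (16 to 34 called, the 16 without the KO library with eLDL, the KO library with none or the WT library with eLDL), and in macrophages from −0.29 to 0.03 for miR-132-3p and −0.31 to 0.16 for miR-132-5p. The knockout difference between cell types ran from −0.79 to −0.53 for miR-132-3p and −0.26 to 0.18 for miR-212-5p, the LPS difference between cell types from 0.40 to 1.16 for miR-132-3p and −0.59 to 1.34 for miR-212-3p (26 to 48 called, 26 without WT dendritic cells with LPS and 30 without unstimulated WT dendritic cells or KO macrophages with LPS), and the genotype difference in LPS response from −0.61 to 0.46 for miR-132-3p and −1.25 to 0.29 for miR-132-5p (0 to 4 called).

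In dendritic cells, leaving out single libraries moved the LPS changes of miR-132-5p between −0.60 and 0.13, miR-212-3p between −0.51 and 1.33 and miR-212-5p between −1.28 and 0.29 (53 to 93 called, 53 without WT cells with LPS and 55 without unstimulated WT cells). LPS against the lipoprotein mean ran from −0.08 to 0.22, −0.66 to 0.07, −0.59 to 1.09 and −1.2 to 0.37 for miR-132-3p, miR-132-5p, miR-212-3p and miR-212-5p (46 to 99 called, 46 without WT cells with LPS). With oxLDL the ranges were −0.16 to 0.22, −0.42 to 0.37 and −0.75 to 0.57 for miR-132-3p, miR-132-5p and miR-212-3p (0 to 8 called). With eLDL they were −0.01 to 0.45, −0.19 to 0.35, −0.26 to 1.08 and −0.48 to 0.43 for the same arms and miR-212-5p (0 to 2 called). With LDL they were −0.23 to 0.48 for miR-132-5p and −0.15 to 1.21 for miR-212-3p (0 to 2 called), and for the mean −0.01 to 0.35, −0.10 to 0.28, −0.39 to 0.95 and −0.20 to 0.11 for miR-132-3p, miR-132-5p, miR-212-3p and miR-212-5p (0 to 2 called).

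Leaving out single pairs moved the 5p share of miR-212 between −0.235 and 4.12 points for macrophages minus dendritic cells and between −0.262 and 3.69 points for KO minus WT. It moved the miR-212-3p share between −4.27 and 3.07 points for LPS and between −1.25 and 1.2 points for KO minus WT, and the added-T share between −0.638 and 1.13 points for macrophages minus dendritic cells and between −3.17 and 0.501 points for LPS.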
